A study of Vitis vinifera with 12 samples.

Results

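NAC proteins are plant-specific transcription factors that share a conserved DNA-binding domain at one end and differ in the regulatory region at the other. They bind target promoters as dimers, and members of the family are known from several fruits, tomato above all, as regulators of ripening and of organ senescence. Grape berries first grow green and hard, then soften, accumulate sugar and lose acid, and this change in the berry is the setting in which grapevine NAC genes have been studied. The 6 genes described here were chosen by gene ID as NAC genes linked to berry ripening. They are NAC33 (VIT_19s0027g00230), NAC60 (VIT_08s0007g07670), NAC26 (VIT_01s0026g02710), NAC11 (VIT_14s0108g01070), NAC13 (VIT_02s0012g01040) and NAC03 (VIT_00s0375g00040), 6 of the 22580 gene IDs in the table. The names come with that list of IDs, since the deposited table holds IDs alone and none of the 22580 IDs was found in the RefSeq gene table used here (0 matches). The first digits of an ID give the chromosome, so the genes lie on chromosomes 19, 8, 1, 14 and 2, with NAC03 on sequence not placed on a chromosome. No 2 of them are neighbours.

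The samples were fruit of Victoria, a white table-grape cultivar of Vitis vinifera, collected 40, 50, 60 and 80 days after full bloom. Each age had 3 RNA sequencing libraries, called a, b and c. The labels give age only, with no sugar, colour or firmness, and do not say which parts of the fruit were used. They also speak of pooled replicates, so the spread between libraries of an age may be technical, and the p-values below measure that spread only. Values are FPKM, fragment numbers scaled to transcript length and to the size of the library, which can be set against each other between genes. In bulk fruit tissue, fewer cells of a type and less RNA per cell cannot be told apart.

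All 6 genes were detected in all 12 libraries, and all 6 passed the filter of at least 1 FPKM in at least 3 libraries, as did 14743 genes in all. Library sums of FPKM ranged from 1058844 to 1395232. The absolute depth is not known from FPKM. Depth relative to library a of 40 days, read from the steps between low values, ranged from 0.853 to 1.75, with the weakest peak of such steps in library c of 60 days. Library c of 40 days and library a of 80 days lay furthest from their age means over all tested genes (SD of log2 deviations 0.29 and 0.30, where the other libraries had 0.19 to 0.27). A gene was called when limma gave a Benjamini-Hochberg adjusted p under 0.05 over all tested genes and the difference between ages was at least 1 on the log2(FPKM + 1) scale, where 1 is the pseudocount.

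The 6 genes did not share one course over the ages. All 6 were called in the limma F test over the 4 ages, in which 30.6% of tested genes were called. With a pseudocount of 5 the range of NAC03 was 0.89, below the minimum of 1, which left 5 of 6. NAC33 and NAC60 had their highest mean in 40-day berries, NAC26 and NAC13 in 50-day berries, and NAC11 and NAC03 in 80-day berries. For NAC33, NAC60 and NAC26 the highest mean was not called against the next. Their differences of 50 from 40 days were -0.40, -0.24 and 0.30 (limma adjusted p = 0.249, 0.594 and 0.554). For NAC13 the next mean was that of 60 days. The difference of 60 from 50 days was -0.66 (limma adjusted p = 0.0176), under the minimum of 1 and so not called. Its 50-day libraries were nevertheless above all others. For NAC11 and NAC03 the place of the peak was not settled either. The 80-day mean of NAC11 was below its 60-day mean with libraries scaled to a common sum and without library a of 60 days or library a of 80 days, and that of NAC03 was below its 50-day mean with a common sum and with sample weights. Among all genes called in the F test, the shares that peaked at the 4 ages, youngest first, were 52.9%, 11.4%, 14.6% and 21.1%. These shares go by the highest mean alone. The range of the age means was 1.29 to 2.98 on the log2 scale, which is between the 78 and the 96.6 percentile of that range among tested genes. Of the 6, 2 were called higher in the oldest than in the youngest berries and 2 lower, where 7.06% and 16.1% of tested genes were.

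**Figure D1:**
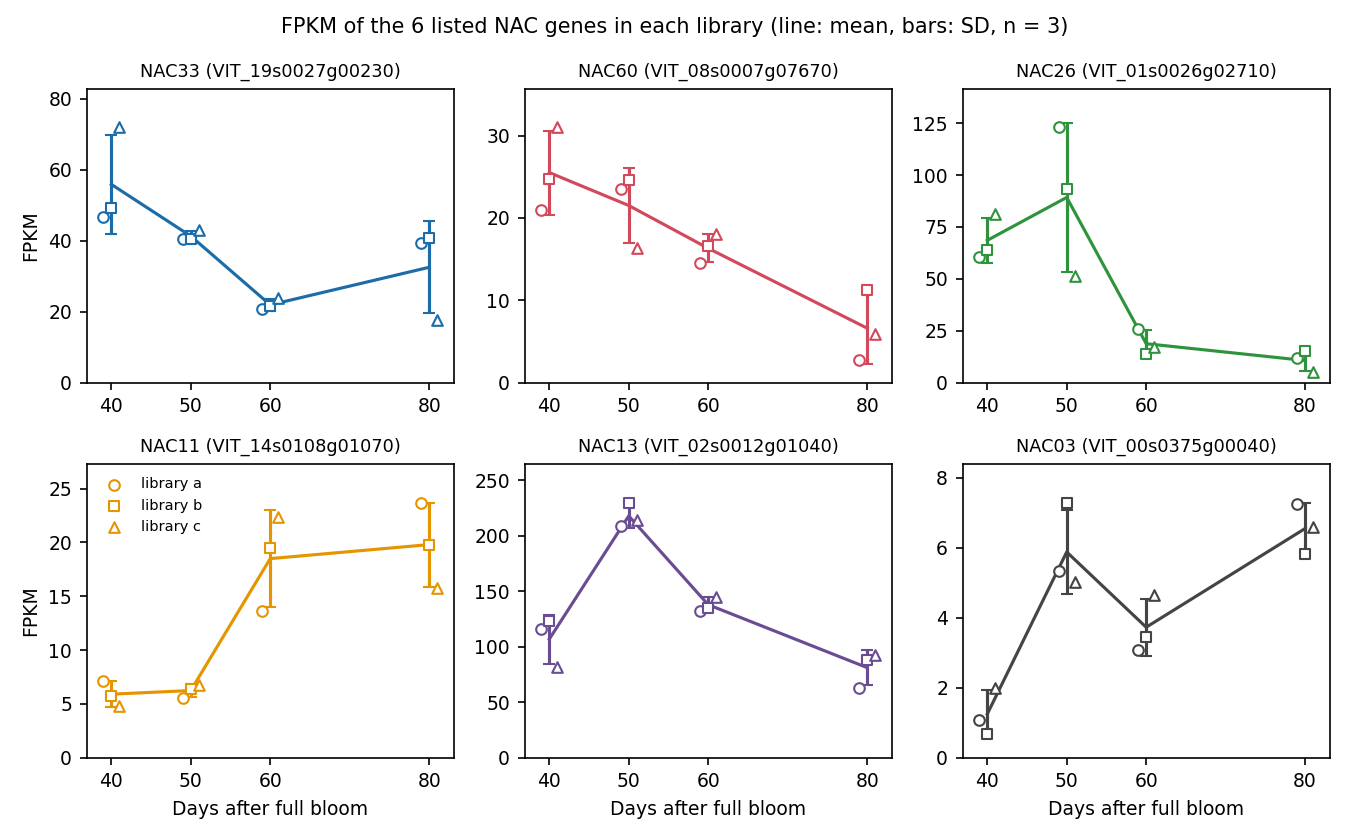
FPKM of each gene in each library against days after full bloom; symbols are libraries a, b and c, the line joins the age means and the bars are SD (n = 3). Each panel has its own axis from 0. NAC26 and NAC60 have their lowest mean at 80 days, NAC11 and NAC03 their lowest at 40 days, and NAC13 its highest at 50 days.

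Between the youngest and the oldest berries, NAC11 and NAC03 rose and NAC60 and NAC26 fell. These are 4 of 6 genes, where 23.1% of tested genes were called in the comparison of 80 with 40 days (7.06% higher and 16.1% lower). NAC33 and NAC13 were not called. The differences of the 6 ran from -2.67 (NAC26) to 1.78 (NAC03). Their median of -0.61 lies between NAC33 (-0.83) and NAC13 (-0.39), so it describes no joint shift. The median of all tested genes was -0.113. The libraries of 80 and 40 days did not overlap in 5 of the 6, all but NAC13, and in 64.5% of tested genes.

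NAC26, a gene in which natural variation has been associated with berry size, had the largest relative change of the 6. Its FPKM values were 60.3, 63.9 and 81.2 in 40-day berries, 123, 93.3 and 51.3 in 50-day berries, 25.9, 13.5 and 16.9 in 60-day berries, and 11.8, 15 and 5.14 in 80-day berries. Every library of 60 and 80 days was below every library of 40 and 50 days. The age means were 68.5 ± 11, 89.2 ± 36, 18.7 ± 6.4 and 10.6 ± 5.0 FPKM (SD, n = 3), so the mean of 80 days was 0.119 times that of 50 days. NAC26 fell between 50 and 60 days with a log2 difference of -2.15 ± 0.38 SE (limma adjusted p = 0.0036). It was also lower at 80 than at 50 days (-2.98 ± 0.38 SE, limma adjusted p = 0.000119) and at 80 than at 40 days (-2.67 ± 0.38 SE, limma adjusted p = 0.000106). The 60-day level was below the 40-day level as well, by a log2 difference of -1.85 ± 0.38 SE (limma adjusted p = 0.00199). The neighbouring means did not separate: 50 against 40 days gave 0.30 ± 0.38 SE (limma adjusted p = 0.554) and 80 against 60 days -0.82 ± 0.38 SE (limma adjusted p = 0.118), and the libraries overlapped in both. At 50 days the libraries differed by a factor of 2.4. Without library a of that age the difference of 50 from 40 days was 0.03, and without library c it was 0.65, neither of them called. In rank within a library, where 1 is the highest of 22580 IDs, NAC26 stood between 4759 and 10134 in the 6 libraries of 60 and 80 days and between 1182 and 2701 in the 6 younger ones.

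NAC60 belongs to the grapevine NAC genes studied as regulators of the passage from green growth to maturity. In these berries its highest mean was at the youngest age. Its FPKM values were 20.9, 24.7 and 31.0 in 40-day berries, 23.5, 24.6 and 16.3 in 50-day berries, 14.5, 16.6 and 18.0 in 60-day berries, and 2.71, 11.2 and 5.89 in 80-day berries. All 3 libraries of 80 days were below the other 9, while libraries of 50 days overlapped those of 40 and of 60 days. The means were 25.5 ± 5.1, 21.5 ± 4.5, 16.3 ± 1.7 and 6.60 ± 4.3 FPKM (SD, n = 3). NAC60 fell between 60 and 80 days by a log2 difference of -1.35 ± 0.34 (SE; limma adjusted p = 0.0105), and was the only 1 of the 6 called in that interval, where 9.48% of tested genes were called (6.8% lower). This call rested on library a of 80 days, which held the lowest value of NAC60. Over all tested genes that library lay furthest from its age mean (SD 0.30), though library c of 80 days was near it (0.27). Without library a of 80 days the difference was -0.92 (limma adjusted p = 0.022), short of the minimum of 1. The fall against 40 days (-1.95 ± 0.34 SE, limma adjusted p = 0.000467) and against 50 days (-1.71 ± 0.34 SE, limma adjusted p = 0.0021) kept its call without that library, at -1.52 and -1.27. The earlier steps were not called, with -0.24 ± 0.34 SE for 50 against 40 days and -0.36 ± 0.34 SE for 60 against 50 days (limma adjusted p = 0.594 and 0.502). Nor was 60 against 40 days (-0.60 ± 0.34 SE, limma adjusted p = 0.163), although the libraries of those ages did not overlap.

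NAC33, which has been studied in grapevine as a regulator of the same passage and of the end of photosynthetic activity in leaves, had its lowest mean at 60 days. Its FPKM values were 46.6, 49.2 and 72.0 in 40-day berries, 40.6, 40.5 and 42.9 in 50-day berries, 20.7, 21.5 and 23.7 in 60-day berries, and 39.3, 40.7 and 17.5 in 80-day berries. The libraries of 50 and of 60 days were close together within each age, whereas at 80 days libraries a and b stood near the level of 50 days and library c below that of 60 days. The means were 55.9 ± 14, 41.3 ± 1.4, 21.9 ± 1.6 and 32.5 ± 13 FPKM (SD, n = 3). NAC33 fell between 40 and 60 days (-1.29 ± 0.27 SE, limma adjusted p = 0.00206), and none of the other 5 comparisons of ages was called for it. The step between 50 and 60 days was -0.89 ± 0.27 SE (limma adjusted p = 0.0393), short of the minimum of 1, and its limma adjusted p was 0.0792 to 0.106 when any single library of those ages was left out. The difference of 80 from 60 days was 0.46 ± 0.27 SE with all libraries (limma adjusted p = 0.208) and 0.84 without library c of 80 days (limma adjusted p = 0.00326), below 1 in both cases. For 80 against 40 days it was -0.83 ± 0.27 SE (limma adjusted p = 0.019), and -0.45 without that library. It passed the minimum of 1, and was called, without library a or without library b of 80 days (-1.01 and -1.03, limma adjusted p = 0.0115 and 0.00938).

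NAC13 was the most abundant of the 6, with a mean of 136 FPKM over the 12 libraries, and had its highest values at 50 days. Its FPKM values were 116, 123 and 81.6 in 40-day berries, 209, 230 and 214 in 50-day berries, 132, 135 and 145 in 60-day berries, and 63.3, 88.1 and 92.6 in 80-day berries. The libraries of 50 days were above all others and those of 60 days above those of 40 and 80 days, while the 40-day and 80-day libraries overlapped. The means were 107 ± 22, 218 ± 11, 138 ± 7.0 and 81.3 ± 16 FPKM (SD, n = 3). NAC13 rose between 40 and 50 days by 1.04 on the log2 scale (SE 0.16, limma adjusted p = 0.000504), just past the minimum of 1. Without library c of 40 days, which held the lowest NAC13 value of its age, the rise was 0.86 (limma adjusted p = 0.00119) and no longer called. NAC13 was lower at 80 than at 50 days (-1.43 ± 0.16 SE, limma adjusted p = 5.73e-05). That decline came in 2 steps which each had an adjusted p under 0.05 but a size under 1, -0.66 ± 0.16 SE for 60 against 50 days (limma adjusted p = 0.0176) and -0.77 ± 0.16 SE for 80 against 60 days (limma adjusted p = 0.00422). The adjusted p of the first step was above 0.05 without library b of 50 days (limma, 0.0583) or library b of 60 days (limma, 0.0602). The levels at 80 and at 40 days differed by -0.39 ± 0.16 SE (limma adjusted p = 0.0599), and those at 60 and 40 days by 0.38 ± 0.16 SE (limma adjusted p = 0.0714). In rank NAC13 stood between 1566 and 2348 in the libraries of 80 days and between 610 and 679 in those of 50 days.

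NAC11 was higher at 60 and 80 days than at 40 and 50 days, and of the 3 intervals the 1 called for it was that between 50 and 60 days. Its FPKM values were 7.16, 5.78 and 4.78 in 40-day berries, 5.59, 6.41 and 6.75 in 50-day berries, 13.6, 19.5 and 22.4 in 60-day berries, and 23.7, 19.8 and 15.8 in 80-day berries. The 6 later libraries were all above the 6 earlier ones, and within each of these pairs of ages the libraries overlapped. The means were 5.91 ± 1.2, 6.25 ± 0.60, 18.5 ± 4.5 and 19.8 ± 3.9 FPKM (SD, n = 3). NAC11 rose between 50 and 60 days by 1.4 on the log2 scale (SE 0.20, limma adjusted p = 0.00115), and was 3.35 times as high at 80 as at 40 days (1.59 ± 0.20 SE, limma adjusted p = 3.6e-05). Its differences were of like size for 60 against 40 days (1.48 ± 0.20 SE, limma adjusted p = 0.00011) and for 80 against 50 days (1.51 ± 0.20 SE, limma adjusted p = 0.000133). The steps before and after were 0.08 ± 0.20 SE for 50 against 40 days and 0.10 ± 0.20 SE for 80 against 60 days (limma adjusted p = 0.769 and 0.721). The sign of both of these small differences turned under some alternatives, the second one under scaling to a common sum (-0.03).

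NAC03 was the least abundant of the 6, with a mean of 4.35 FPKM over all libraries, and low values carry more relative counting error. Its FPKM values were 1.07, 0.68 and 2.0 in 40-day berries, 5.35, 7.29 and 5.02 in 50-day berries, 3.07, 3.46 and 4.64 in 60-day berries, and 7.24, 5.81 and 6.60 in 80-day berries. The libraries of 40 days were the 3 lowest and those of 60 days came next, while those of 50 and 80 days overlapped. The means were 1.25 ± 0.68, 5.88 ± 1.2, 3.73 ± 0.82 and 6.55 ± 0.72 FPKM (SD, n = 3). NAC03 rose between 40 and 50 days by 1.64 on the log2(FPKM + 1) scale (SE 0.22, limma adjusted p = 0.000156), and was higher at 80 than at 40 days by 1.78 (SE 0.22, limma adjusted p = 2.99e-05). In mean FPKM it was 4.71 times as high at 50 as at 40 days and 5.24 times as high at 80 as at 40 days; the log2 values understate these ratios because of the pseudocount. With a pseudocount of 5 both differences fell short of the minimum of 1 and lost their call (0.80 and 0.89, limma adjusted p = 0.000156 and 2.82e-05), and with a pseudocount of 0.1 they were 2.25 and 2.42. The dip at 60 days was not called. It was -0.54 ± 0.22 SE against 50 days (limma adjusted p = 0.101), and 80 days was above it by 0.68 ± 0.22 SE (limma adjusted p = 0.0297). At 60 days NAC03 was higher than at 40 days by 1.10 ± 0.22 SE (limma adjusted p = 0.00146), a call lost without library b of 40 days (0.91) or library c of 60 days (0.96). The levels at 80 and 50 days differed by 0.14 ± 0.22 SE (limma adjusted p = 0.622), and scaling to a common sum turned that sign (-0.06).

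**Figure D2:**
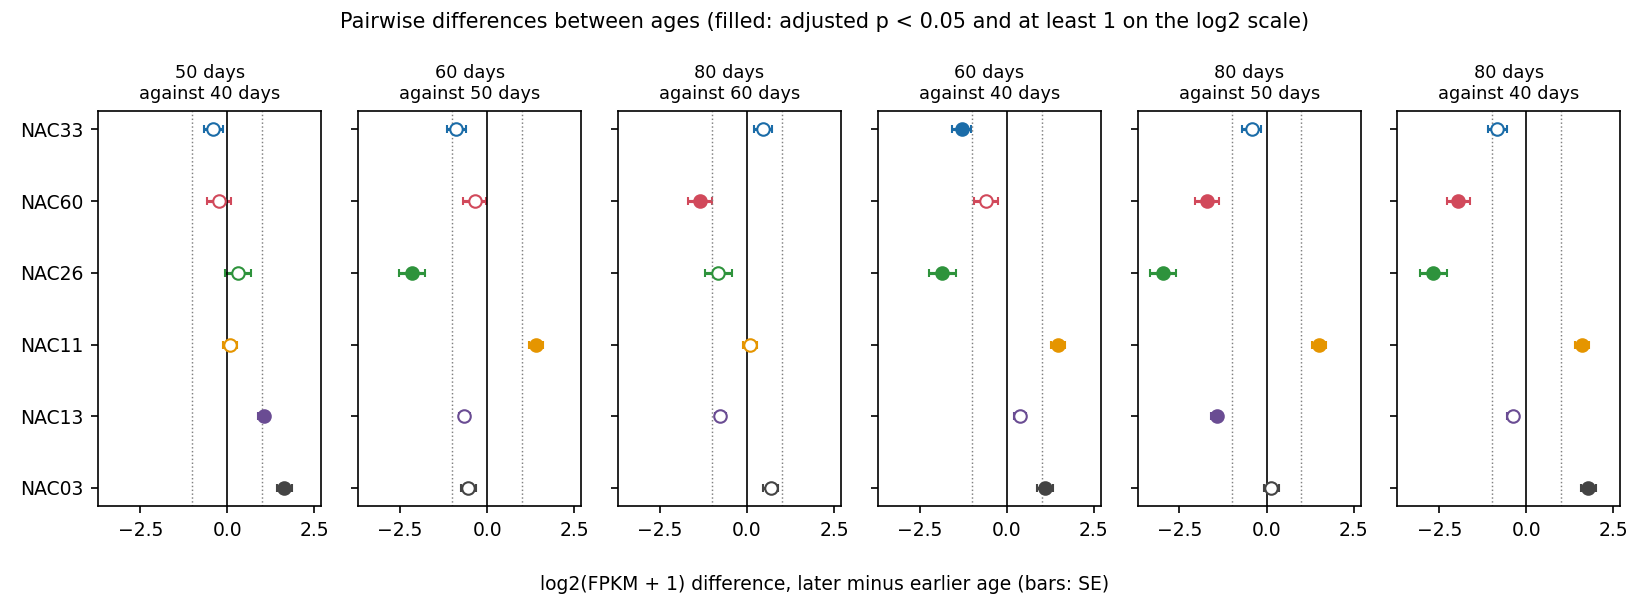
Difference in log2(FPKM + 1) between 2 ages, later minus earlier, for each gene in each of the 6 pairwise comparisons; bars are SE and filled points passed both thresholds, with dotted lines at -1 and 1. For 80 against 40 days NAC11 (1.59) and NAC03 (1.78) lie to the right and NAC60 (-1.95) and NAC26 (-2.67) to the left, while the earlier changes of NAC03 (50 against 40 days) and NAC11 (60 against 50 days) fall in different intervals.

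Taken by interval, the genes that passed both thresholds differed. Between 40 and 50 days 2 of 6 genes were called, NAC13 and NAC03, both higher, where 11.9% of tested genes were called (3.44% higher and 8.43% lower). Between 50 and 60 days 2 of 6 were called, NAC11 higher and NAC26 lower, where 4.32% of tested genes were called (2.01% higher and 2.31% lower). Between 60 and 80 days 1 of 6 was called, NAC60, lower, where 9.48% of tested genes were called (2.68% higher and 6.8% lower). That call was lost without library a of 80 days. No gene of the 6 was called in more than 1 of these 3 intervals, which depends on the minimum difference of 1. The share of tested genes called in more than 1 interval was not counted. By adjusted p under 0.05 alone, 2, 4 and 3 of the 6 passed in the intervals in order. Of the 14743 tested genes, 6429, 2852 and 5137 did so. NAC13 passed in each interval (limma adjusted p = 0.000504, 0.0176 and 0.00422) and NAC03 in the first and last (limma adjusted p = 0.000156 and 0.0297). The middle value of NAC13 and the last of NAC03 rose above 0.05 when some single libraries were left out. Across 20 days or more, 4 of 6 were called for 60 against 40 days (NAC11 and NAC03 higher, NAC33 and NAC26 lower, where 15.8% of tested genes were called, 5.51% higher and 10.3% lower) and 4 of 6 for 80 against 50 days (NAC11 higher, NAC60, NAC26 and NAC13 lower, where 11.8% of tested genes were called, 3.66% higher and 8.15% lower). These comparisons share libraries, so their calls are not independent of each other. The set of calls and directions over all 6 comparisons that each gene showed was shared by between 24 (NAC13) and 299 (NAC60) of the other tested genes, with 45 for NAC11, 69 for NAC26, 109 for NAC33 and 155 for NAC03.

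The summed FPKM of the 6 genes had its highest mean at 50 days. It was 264 ± 11 in 40-day berries, 382 ± 40 in 50-day berries, 217 ± 12 in 60-day berries and 157 ± 20 FPKM in 80-day berries (SD, n = 3). NAC13 held the largest mean share at each age, which was 40.7% ± 9.3, 57.4% ± 6.1, 63.5% ± 0.88 and 52.0% ± 11 at the 4 ages in order. NAC26 held 25.9% ± 3.4, 22.9% ± 7.5, 8.68% ± 3.2 and 6.61% ± 2.6 at the 4 ages in order. NAC11 held 12.7% ± 2.9 at 80 days against 2.25% ± 0.55 at 40 days, and NAC03 held 4.23% ± 0.90 against 0.47% ± 0.24 at the same ages. In library c of 40 days NAC13 and NAC26 were nearly equal, at 81.6 and 81.2 FPKM.

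**Figure D3:**
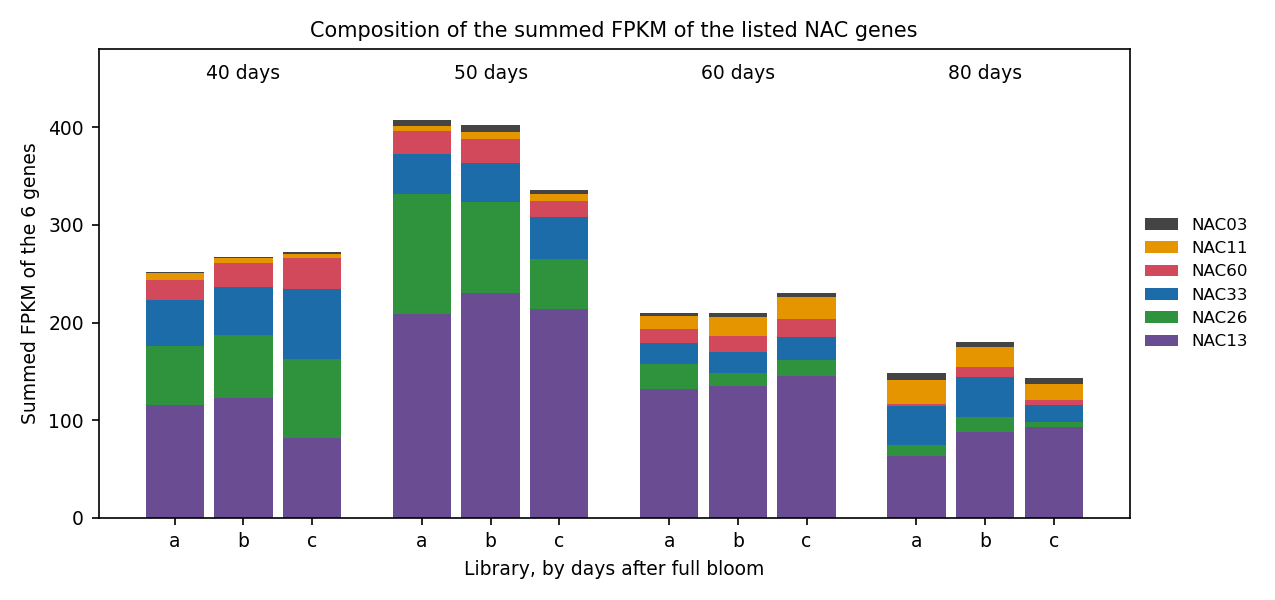
Stacked bars of FPKM per library, grouped by days after full bloom, with each colour 1 of the 6 genes. The bars are tallest at 50 days (mean 382 FPKM) and shortest at 80 days (157 FPKM), and the NAC26 part shrinks from 60 days on while the NAC11 part widens.

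Ratios between 2 of the genes within a library do not depend on how libraries are scaled. The ratio of NAC26 to NAC11 was 8.42, 11.1 and 17.0 in 40-day berries, 22.0, 14.6 and 7.60 in 50-day berries, 1.90, 0.690 and 0.753 in 60-day berries, and 0.497, 0.757 and 0.325 in 80-day berries. NAC26 thus exceeded NAC11 in the 6 younger libraries and in library a of 60 days, and was below it in the other 5. The ratio of NAC03 to NAC60 was 2.68, 0.519 and 1.12 in 80-day berries, and 0.0509, 0.0276 and 0.0645 in 40-day berries. It was above 1 in libraries a and c of 80 days alone. The ratio of NAC33 to NAC60 was 14.5, 3.64 and 2.98 in 80-day berries, against 1.30 to 2.64 over the 9 younger libraries. All 3 values of 80 days were above those 9, with the highest in library a, where NAC60 was lowest.

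Over the 12 libraries the courses of the 6 genes correlated in different directions. On the log2(FPKM + 1) scale the Pearson correlation was -0.90 between NAC26 and NAC11, 0.78 between NAC60 and NAC26, 0.71 between NAC33 and NAC26, and 0.46 between NAC11 and NAC03. The libraries of an age share their age, so these values describe the 4 age means as well as the libraries. For the deviations of the libraries from their age means, the same 4 pairs had correlations of -0.17, 0.30, 0.61 and 0.09. At 40 days library c held the highest value of 4 genes (NAC33, NAC60, NAC26 and NAC03) and the lowest of the other 2 (NAC11 and NAC13). At 60 days library c held the highest value of 5 of the 6 and library a the lowest of 5 of the 6, with NAC26 as the exception in both. At 80 days library c held the lowest value of NAC33, NAC26 and NAC11, and library a that of NAC60 and NAC13.

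**Figure D4:**
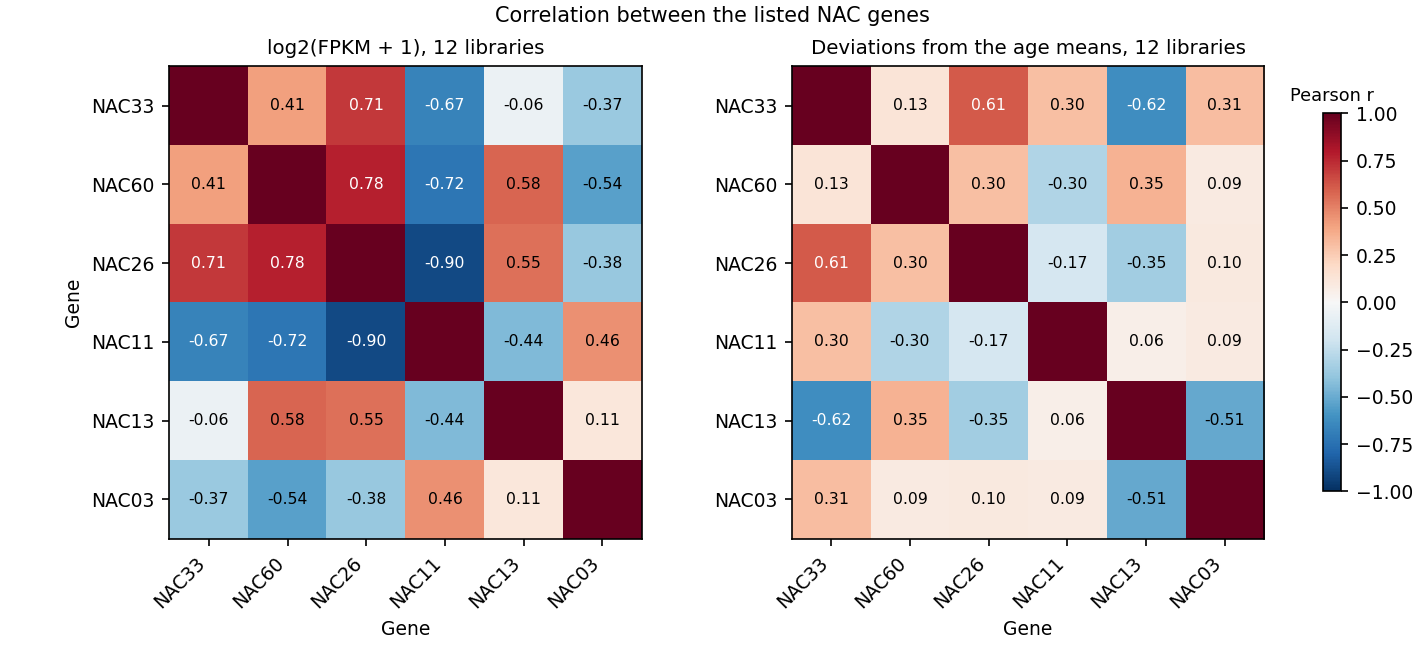
Pearson correlation between the genes, on the left of log2(FPKM + 1) over the 12 libraries and on the right of the deviations of the same libraries from their age means; the colour scale runs from -1 to 1. The strong negative value of NAC26 with NAC11 on the left (-0.90) is -0.17 on the right.

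Other genes with a like course are given by ID, since no name is paired with them. Likeness was measured on log2(FPKM + 1) as Pearson's r across the 12 libraries, against each of the 11827 genes outside the list that reached a mean of 5 FPKM at some age. Counts of genes with a correlation of at least 0.95 were 3 for NAC33, 10 for NAC60, 17 for NAC26, 20 for NAC11, 11 for NAC13 and 4 for NAC03. The gene most like NAC11 was VIT_03s0063g02620 (r = 0.987), with means of 2.0, 2.88, 49.3 and 55.0 FPKM at 40, 50, 60 and 80 days. After it came VIT_13s0019g03390 (0.983) and VIT_01s0026g02210 (0.982).

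VIT_18s0001g08710 was most like NAC33 (r = 0.981) and had means of 63.8, 32.1, 3.66 and 16.3 FPKM, so its lowest mean was also at 60 days. VIT_01s0010g00240 (0.964) and Grape_newGene_1576 (0.954) followed. Those most like NAC60 were VIT_14s0068g02190 (0.970), VIT_00s0304g00010 (0.962) and VIT_13s0064g01260 (0.956). The last of these is an abundant transcript, with means of 4680, 4750, 3300 and 360.0 FPKM. For NAC26 the 3 nearest were VIT_12s0028g01120 (0.968), VIT_12s0142g00160 (0.966) and VIT_04s0008g04270 (0.965). NAC13 was followed most closely by VIT_08s0007g08960 (0.974), VIT_05s0020g03890 (0.971) and VIT_17s0000g04960 (0.967). NAC03 was followed by VIT_09s0002g07110 (0.973), VIT_16s0022g02230 (0.966) and VIT_00s0299g00110 (0.957). VIT_09s0002g07110 stood at a far higher level, with means of 52.6, 107, 84.0 and 125 FPKM, of which the 60-day mean is also below those of 50 and 80 days.

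Genes next to the 6 on the chromosome are given by their own calls. Of the 24 nearest IDs, 2 on each side of each gene, 17 passed the filter. Over the 4 ages 3 of the 17 were called (30.6% of all tested genes), and 1 of the 17 was called for 80 against 40 days (23.1% of all tested genes). That 1 is VIT_08s0007g07690, the second ID after NAC60, which was lower at 80 days (-4.13 on the log2 scale, limma adjusted p = 1.09e-05). Its means were 248, 333, 151 and 16.1 FPKM at the 4 ages in order, and its correlation with NAC60 over the 12 libraries was 0.92. VIT_08s0007g07680, which lies between the 2, had means of 257, 185, 229 and 202 FPKM and a correlation of 0.24. On the other side of NAC60, VIT_08s0007g07660 went the opposite way, with means of 121, 105, 126 and 213 FPKM. Its correlation with NAC60 was -0.80, and it was called over the 4 ages. Over the 17 genes the correlation with the NAC gene beside them ranged from -0.80 to 0.92, and the next highest was that of VIT_14s0108g01050 with NAC11 (0.77), a gene that was not called.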

How the data were processed

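The authors deposited 1 table of FPKM per gene ID and library. Per the submitters' processing notes the tools were Trimmomatic 0.36, FastQC, TopHat2, Cufflinks and edgeR, with no roles given. Not given in the sources used here are the genome build, the annotation and how fragments fitting several NAC genes were assigned. Per the labels' protocols, libraries were directional and made from poly(A) RNA. Columns were matched to samples by the labels' descriptions (0 columns left over).

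FPKM values are not counts, so log2(FPKM + 1) of the 14743 genes reaching 1 FPKM in 3 or more libraries was fitted with limma 3.58.1 (R 4.3.3; 1 mean per age, intensity trend, 8 residual degrees of freedom), over all 12 libraries. The fit was tested on simulated data, in which only genes with a mean log2 value above 3 were changed, at 80 days alone. That test did not cover low genes such as NAC03, and its outcome is not used here. Python 3.11.15, numpy 2.4.6, pandas 2.3.3, scipy 1.17.1 and matplotlib 3.10.9 were used for the rest. The 6 genes and the tests were chosen with earlier results of these data known. Named beside them are the 3 genes with the highest correlation with each, and neighbours by ID number. No other NAC gene was described, because no ID could be matched to a product name.

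Tried as alternatives were a pseudocount of 0.1 or 5, dropping the filter or raising it to 5 FPKM, scaling libraries by the median of ratios or to a sum of 1000000, a replicate block by letter, limma's sample weights, a fit with no trend, no minimum for the difference, a fit of only the ages compared, and leaving out every library once.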

Additional observations from a re-analysis of the deposited data

How the results depend on the processing

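Over 6 pairwise comparisons and the range over ages, the 6 genes gave 1002 values under the alternatives. Of these, 971 kept their sign and their call or lack of one. An adjusted p could cross 0.05 among these where the difference was under 1. Part of this agreement was fixed in advance. A changed filter, the replicate block, no trend, no minimum and a fit of only the ages compared leave each pairwise difference as it is. So does leaving out a library of an age not compared. In those settings the sign cannot turn, and at most the call can change. A range over ages is never negative, so its sign cannot turn under any alternative. The number of genes called of 6 between 40 and 50 days was 1 at a pseudocount of 5, under sample weights and without both library c of 40 days and library a of 80 days (an alternative chosen after seeing the data), and 1 to 2 with single libraries left out. Between 60 and 80 days it was 0 at a pseudocount of 5, under sample weights and without those 2 libraries, 0 to 1 with single libraries left out, and 3 with no minimum difference. Between 50 and 60 days it was 4 with no minimum difference. The sign turned in differences near 0 that were never called: NAC11 for 50 against 40 days was -0.01 with sample weights, -0.04 without both libraries, and -0.04 (without library c of 40 days) to 0.21 with single libraries left out. NAC11 for 80 against 60 days was -0.03 with a common sum, -0.03 without both libraries, and -0.09 (without library a of 60 days) to 0.25 with single libraries left out, among them -0.03 without library a of 80 days. NAC03 for 80 against 50 days was -0.06 with a common sum and -0.01 with sample weights; the cause was not tested. With libraries brought to a sum of 1000000, the median tested gene stood at -0.354 for 80 against 40 days, against -0.113 as deposited; NAC33 was then called (-1.09), while its difference relative to the median was -0.74, against -0.72 as deposited. NAC03 for 60 against 40 days lost its call at that scaling (0.97, and 1.19 relative to the median), and with a pseudocount of 5 (0.48). That pseudocount also ended the calls of NAC03 for 50 against 40 days (0.80), for 80 against 40 days (0.89) and over the 4 ages (range 0.89); it shrinks the change of low genes by construction. Over all tested genes, the calls at a pseudocount of 5, then those without a minimum difference, were 2011 and 8870 for 80 against 40 days, 899 and 6429 for 50 against 40 days, 299 and 2852 for 60 against 50 days, 735 and 5137 for 80 against 60 days, 1272 and 7569 for 60 against 40 days, and 937 and 6400 for 80 against 50 days.

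No sign was seen that the letters pair the libraries, though 3 libraries per age cannot exclude it. Deviations from the age means of libraries with the same letter correlated between -0.161 and 0.189, and those with different letters between -0.172 and 0.191; the own letter gave the highest correlation in 13 of 36 cases. With the letter as a replicate block the genes called of 6 were 2, 2 and 1 in the 3 intervals and 4 for 80 against 40 days, and no call of the 6 genes changed.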
